A study of Mus musculus with 12 samples.

Results

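The interaction of *ACVR1* R206H with H3.1K27M was the difference of 2 differences, computed for each gene on the log2 scale. The first was the log2 fold change between *ACVR1* R206H and *ACVR1* WT in neurospheres that also received H3.1K27M, and the second was the same fold change in neurospheres without it. A value of 0 means that the fold changes multiplied, so that R206H did the same to a gene in both backgrounds. All 12 samples of the series entered the calculation, 3 in each of 4 groups, and 15445 of the 54532 genes in the count tables had a mean normalised count of at least 10 and were tested. A gene past an adjusted p of 0.05 was called stronger than additive where the R206H effect was larger in size with H3.1K27M, weaker where it was smaller, and opposite where both effects had an unadjusted p under 0.05 and unlike signs. A gene not past the threshold was called additive where the 95% interval of its interaction lay between -1 and 1 on the log2 scale, and undetermined otherwise.

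RNA came from brainstem progenitors of C57BL/6 mice labelled Nestin TVA and p53 floxed, isolated at P3 to P5 and grown as neurospheres without serum in EGF and FGF2. RCAS vectors delivered human *ACVR1* WT, R206H *ACVR1*, *ACVR1* WT with H3.1K27M, or R206H *ACVR1* with H3.1K27M. Every group therefore carried an *ACVR1* vector and the same host genotype, and there was no group with H3.1K27M alone or with no vector. The Tv-a receptor for these viruses was driven by the nestin promoter, so that infection was limited to cells in which it is active, and the labels name no Cre vector, so that the floxed p53 alleles were not stated to be deleted. The labels number the samples 1 to 3 within a group and do not say whether they were separate litters or cultures, and the p-values measure the spread between these samples only.

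ACVR1 is a type I receptor for BMP and activin ligands that phosphorylates SMAD1, SMAD5 and SMAD8, which enter the nucleus with SMAD4 and raise target genes such as the *Id* genes. The R206H substitution lies in the regulatory domain of the receptor, makes it overactive and lets it signal in response to activin. H3.1K27M is a histone H3 variant with methionine in place of a lysine in its tail, which lowers methylation of this residue by the Polycomb complex PRC2 across the genome. Both are found together in diffuse midline gliomas of children.

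Samples held from 19315020 to 26456257 counts, and 22473 to 25207 genes had at least 1 count. The 3 *ACVR1* WT samples without H3.1K27M stood apart from one another, with a biological coefficient of variation of 0.274, against 0.0594 in *ACVR1* R206H and 0.0503 and 0.0451 in the WT and R206H groups with H3.1K27M. *Mki67*, a gene of dividing cells, had 339.6, 92.9 and 31.3 CPM (counts scaled to the size of the library, with TMM factors) in *ACVR1* WT replicates 1, 2 and 3 and 191 to 273 CPM in *ACVR1* R206H. *Gpr17*, a receptor of committed oligodendrocyte precursors, had 36.5, 723 and 1274 CPM in the same 3 samples and 68.3 to 103 CPM in *ACVR1* R206H. Replicate 1 was thus the most and replicate 3 the least proliferative by *Mki67*, with the order turned round for *Gpr17*, *Dcx* and *Aqp4*. Each interaction rests on this group. The edgeR fit gave each gene the same dispersion in all 4 groups, so that its standard errors, intervals and p-values assume an equal spread. The R206H effect without H3.1K27M may thus be less precise than its standard error. For the 11 called genes, the main lists and part of the other named genes, values are therefore given also without *ACVR1* WT replicate 1 and with it as the only *ACVR1* WT sample, the second of these chosen after the data were seen.

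**Figure D1:**
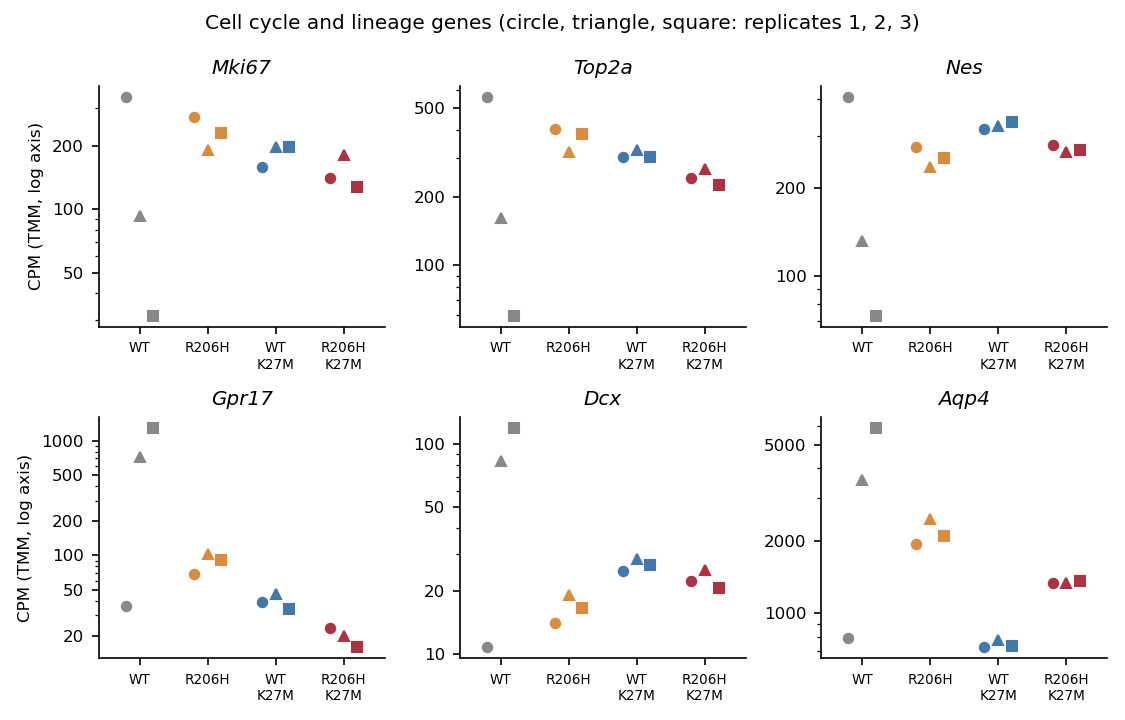
CPM after TMM scaling (log axis) of 3 genes of dividing cells or progenitors (top) and 3 lineage genes (bottom) in each sample, by group, with circles, triangles and squares for replicates 1, 2 and 3. The *ACVR1* WT samples spread from 31.3 to 339.6 CPM for *Mki67*, while the other groups stayed within 191 to 273, 158 to 198 and 127 to 179.8 CPM.

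Counts on mouse *Acvr1* check the vector only in part, since the construct was human and the reads were aligned to the mouse genome. *Acvr1* (ENSMUSG00000026836, chromosome 2, positions 58388644 to 58567157 of mm10) had 53.6, 46.4 and 52.7 CPM with *ACVR1* WT and 114, 82.0 and 85.9 CPM with *ACVR1* R206H. It had 170.1, 162 and 365 CPM with *ACVR1* WT and H3.1K27M, and 1000.4, 562 and 1058 CPM with *ACVR1* R206H and H3.1K27M. The 4 groups did not overlap and rose in that order, with replicate 2 the lowest of the last group. Its interaction was 1.03 (standard error 0.44, adjusted p = 0.64, edgeR), so that the counts on *Acvr1* moved in the same direction as the interaction of the *Id* genes below. A difference in vector level and the R206H substitution cannot be told apart in these groups.

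Over the 15445 genes the interaction had a median of 0.02 on the log2 scale, and the 5th and 95th percentiles were -0.55 and 0.76. Past an adjusted p of 0.05 in edgeR's quasi-likelihood test were 11 genes, or 0.0712% of those tested, 9 of them above 0 (0.0583%) and 2 below (0.0129%). At an unadjusted p under 0.05 there were 1183 genes, or 7.66%, of which 814 (5.27%) lay above 0 and 369 (2.39%) below. By class, 9 genes were stronger than additive, 7 with an interaction above 0 and 2 below, 2 were opposite and 0 were weaker. A further 11114 genes, or 72.0%, were additive within the bound and 4320, or 28.0%, were undetermined. The median standard error was 0.13 among additive genes and 0.47 among undetermined genes. Of the 568 genes with an interaction of at least 1 in size, 6 passed the threshold, so that size alone did not decide the call.

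The same classes were counted among the 1183 genes at an unadjusted p under 0.05. There 830 were stronger (5.37% of those tested, 596 with an interaction above 0 and 234 below), 322 were weaker (200 above and 122 below) and 31 were opposite (0.201%). These classes use the same values that chose the genes and are descriptions. Of the 440 genes past the adjusted threshold for R206H with H3.1K27M (2.85% of those tested), 262 were additive within the bound, 167 were undetermined and 11 were past the interaction threshold. Of the 11 genes past the threshold for R206H without H3.1K27M (0.0712% of those tested), 8 were additive, 3 were undetermined and 0 had an adjusted interaction p under 0.05 in edgeR's test.

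**Figure D2:**
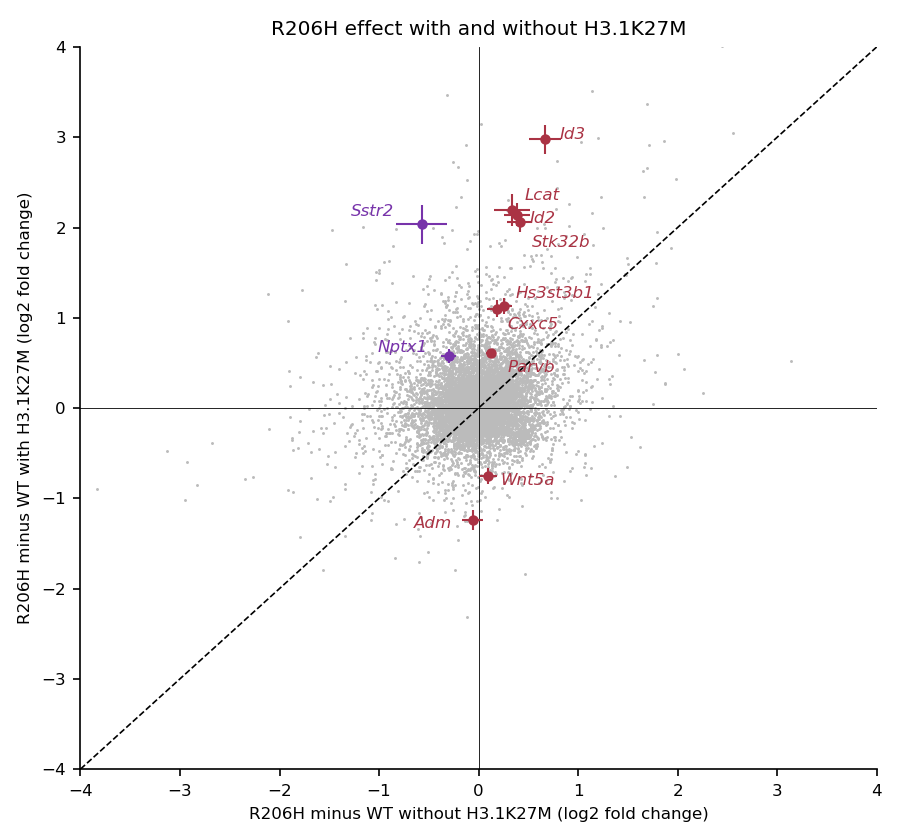
Log2 fold change between *ACVR1* R206H and *ACVR1* WT with H3.1K27M (vertical) against without it (horizontal) for the genes tested, as grey points; 6 genes lie outside the axes. Coloured points with standard errors are the 11 genes past the interaction threshold, red for stronger and purple for opposite, and their vertical distance from the dashed line of equal effects is the interaction: *Id3* and *Sstr2* lie above it by 2.31 and 2.61, and *Adm* has -1.18.

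The *Id* genes, which encode proteins that bind bHLH transcription factors and keep them off DNA, included 2 of the 3 genes with the smallest interaction p, *Id3* and *Id2*, the other being *Stk32b*. *Id3* had 72.0, 89.3 and 123 CPM with *ACVR1* WT, 160.3, 139 and 152 with *ACVR1* R206H, 43.2, 46.3 and 38.8 with *ACVR1* WT and H3.1K27M, and 336, 304 and 371 with *ACVR1* R206H and H3.1K27M. In both backgrounds every R206H sample exceeded every WT sample, and the *ACVR1* WT samples with H3.1K27M were the lowest of all 12. The R206H effect on this gene was 0.67 (standard error 0.16) without and 2.98 (standard error 0.16) with H3.1K27M, an interaction of 2.31 (standard error 0.23, adjusted p = 0.0059, edgeR). *Id2* had 157, 192 and 244 CPM with *ACVR1* WT, 263, 251 and 261 with *ACVR1* R206H, 127, 122 and 129 with *ACVR1* WT and H3.1K27M, and 547, 511 and 606 with *ACVR1* R206H and H3.1K27M. The order of the groups was that of *Id3*, with no overlap between *ACVR1* R206H and *ACVR1* WT in either background. R206H had an effect of 0.39 (standard error 0.13) without and 2.14 (standard error 0.13) with H3.1K27M, an interaction of 1.75 (standard error 0.18, adjusted p = 0.0059, edgeR).

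H3.1K27M thus had effects of unlike sign on both genes by *ACVR1* form, and it passed the threshold for 41% of all genes tested with *ACVR1* WT and for 38.6% with *ACVR1* R206H. With *ACVR1* WT it lowered *Id3* by a log2 fold change of -1.15 and *Id2* by -0.65 (adjusted p = 0.00031 and 0.0023, edgeR), and with *ACVR1* R206H it raised them by 1.17 and 1.10 (adjusted p = 0.00024 and 8.1e-05, edgeR). *Id3* (chromosome 4, positions 136143497 to 136145755) and *Id2* (chromosome 12, positions 25093799 to 25097140, mm10) passed the threshold in each of the 12 fits that left out 1 sample, with interactions of 2.08 to 2.48 and 1.57 to 1.89. *Stk32b* was the only other gene for which all 12 passed.

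The other *Id* genes had interactions of like size and did not pass with all samples in edgeR. *Id1* was at 11.9 to 22.0 CPM with *ACVR1* WT, 32.4 to 40.4 with *ACVR1* R206H, 12.4 to 13.8 with *ACVR1* WT and H3.1K27M, and 96.5 to 118 with *ACVR1* R206H and H3.1K27M. Its interaction of 1.79 (standard error 0.28, adjusted p = 0.063, edgeR) missed the threshold, and its R206H effect without H3.1K27M, 1.20, was the largest of the 4 *Id* genes. *Id1* passed as stronger in DESeq2, without *ACVR1* WT replicate 1 (interaction 1.92, adjusted p = 0.00015, edgeR) and with it as the only *ACVR1* WT sample (1.48, adjusted p = 0.00070, edgeR). *Id4* had 14.7, 65.4 and 89.7 CPM in the 3 *ACVR1* WT samples, which ran below and above the 36.3 to 54.1 CPM of *ACVR1* R206H. Its interaction of 2.18 (standard error 0.65, adjusted p = 0.45, edgeR) was 0.24 with replicate 1 as the only *ACVR1* WT sample and was 2.64 without it.

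**Figure D3:**
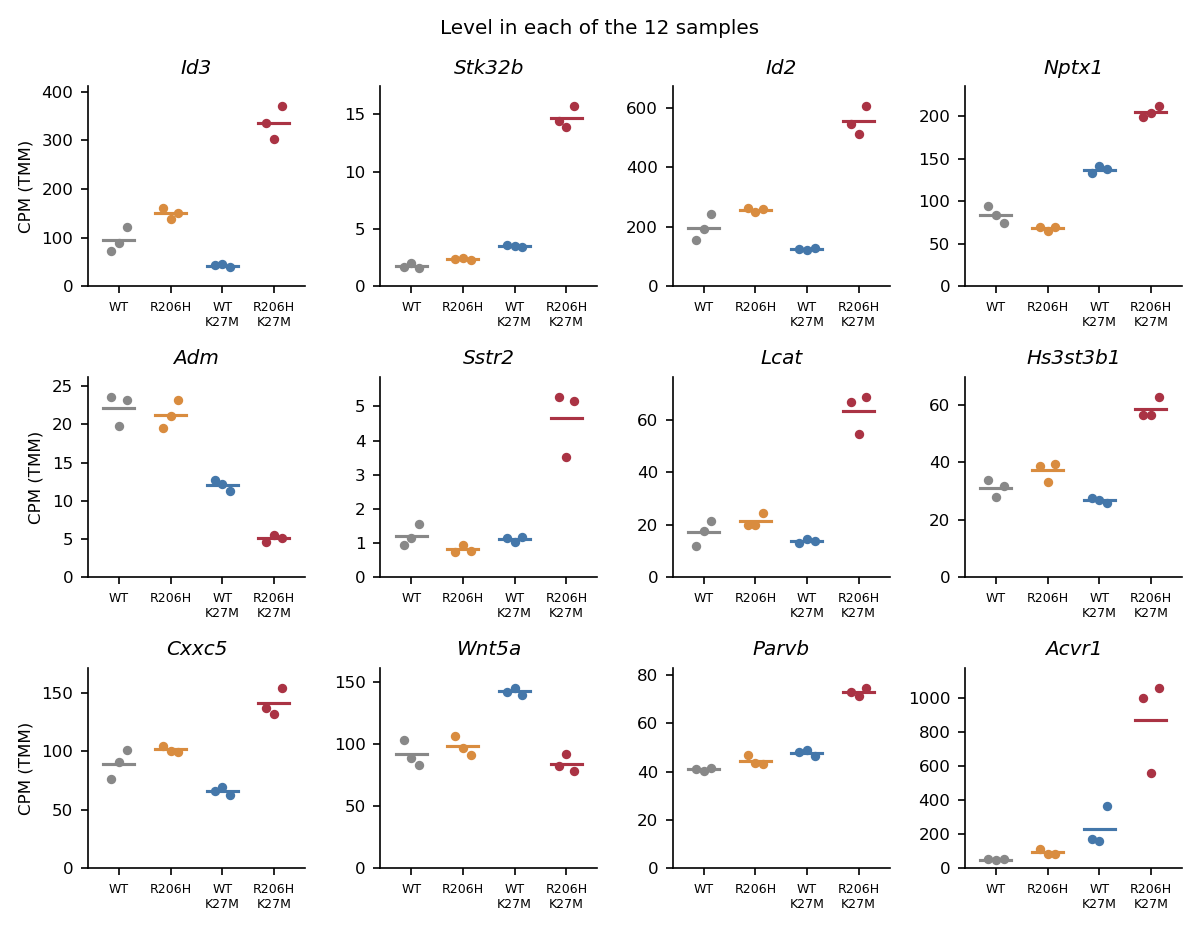
CPM after TMM scaling (linear axis from 0) of the 11 genes past the interaction threshold and of *Acvr1*, in each sample as points with a line at the group mean (n = 3), by *ACVR1* form without and with H3.1K27M (K27M). In 9 of the 11 panels the *ACVR1* R206H samples with H3.1K27M stand above the other 9 samples, and *Adm* and *Wnt5a* are the exceptions.

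Of the other genes that were stronger than additive, *Stk32b*, which encodes a serine/threonine kinase, rose with both mutations. *Stk32b* had 1.66, 2.08 and 1.61 CPM with *ACVR1* WT, 2.40, 2.43 and 2.28 with *ACVR1* R206H, 3.64, 3.48 and 3.45 with *ACVR1* WT and H3.1K27M, and 14.4, 13.9 and 15.7 with *ACVR1* R206H and H3.1K27M. The 3 *ACVR1* WT samples were the lowest, and the samples with both mutations stood above all others. The fitted R206H effect was 0.41 (standard error 0.13) without and 2.06 (standard error 0.11) with H3.1K27M, an interaction of 1.65 (standard error 0.17, adjusted p = 0.0059, edgeR). H3.1K27M raised it with either form of *ACVR1*, by 0.98 with WT and 2.63 with R206H.

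*Lcat*, the enzyme that esterifies cholesterol on lipoproteins, had 12.01, 17.8 and 21.6 CPM with *ACVR1* WT, 19.98, 20.03 and 24.6 with *ACVR1* R206H, 13.2, 14.4 and 13.9 with *ACVR1* WT and H3.1K27M, and 66.6, 54.4 and 68.6 with both mutations. Without H3.1K27M the samples of both *ACVR1* forms overlapped, and with it they were far apart. R206H had an effect of 0.33 (standard error 0.18) without and 2.19 (standard error 0.18) with H3.1K27M, an interaction of 1.86 (standard error 0.25, adjusted p = 0.035, edgeR). *Cxxc5*, a zinc finger protein that acts in Wnt and BMP signalling, was at 76.7 to 101, 99.7 to 105, 62.3 to 69.2 and 132 to 154 CPM in the same 4 groups, with an interaction of 0.92 (adjusted p = 0.044, edgeR). Its exons overlap 2 other annotated genes, and the counting did not use strand. *Hs3st3b1*, which sulfates heparan sulfate, was at 27.9 to 33.9, 33.2 to 39.3, 25.8 to 27.4 and 56.2 to 62.6 CPM, with an interaction of 0.88 (adjusted p = 0.043, edgeR). *Parvb*, an adaptor of integrin adhesions, had the smallest interaction of the 11, 0.49 (standard error 0.07, adjusted p = 0.048, edgeR), with levels of 40.1 to 41.5, 43.1 to 47.1, 46.5 to 49.2 and 71.2 to 74.7 CPM. For each of these 4 genes, as for *Id2* and *Id3*, the samples with both mutations were above all others.

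A pair of genes had an interaction below 0 and were stronger in the sense that R206H was past the threshold for lower levels with H3.1K27M and not without it. *Adm* had 23.6, 19.7 and 23.2 CPM with *ACVR1* WT, 19.5, 21.1 and 23.2 with *ACVR1* R206H, 12.7, 12.2 and 11.3 with *ACVR1* WT and H3.1K27M, and 4.61, 5.54 and 5.17 with *ACVR1* R206H and H3.1K27M. *Adm* encodes adrenomedullin, a secreted vasodilator peptide. The groups without H3.1K27M overlapped, and the samples with both mutations were the lowest. R206H had an effect of -0.06 (standard error 0.10) without and -1.24 (standard error 0.11) with H3.1K27M, an interaction of -1.18 (standard error 0.15, adjusted p = 0.021, edgeR). *Wnt5a* had 103, 89.0 and 82.6 CPM with *ACVR1* WT, 106, 96.7 and 91.1 with *ACVR1* R206H, 142, 145 and 139.7 with *ACVR1* WT and H3.1K27M, and 82.4, 92.0 and 78.1 with *ACVR1* R206H and H3.1K27M. *Wnt5a* encodes a ligand of noncanonical Wnt signalling, and its levels with both mutations overlapped those without H3.1K27M, while the *ACVR1* WT samples with H3.1K27M were above all others. The R206H effect was 0.10 (standard error 0.09) without and -0.76 (standard error 0.09) with H3.1K27M, an interaction of -0.85 (standard error 0.13, adjusted p = 0.048, edgeR). H3.1K27M raised *Wnt5a* by 0.63 with *ACVR1* WT (adjusted p = 0.00029, edgeR), and its effect with *ACVR1* R206H was -0.22 (adjusted p = 0.074, edgeR). An exon of another annotated gene, *Gm2670*, overlaps *Wnt5a*.

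With all samples in edgeR, *Sstr2* and *Nptx1* were the opposite genes. *Sstr2* had 0.949, 1.14 and 1.57 CPM with *ACVR1* WT, 0.751, 0.932 and 0.776 with *ACVR1* R206H, 1.15, 1.05 and 1.19 with *ACVR1* WT and H3.1K27M, and 5.28, 3.52 and 5.17 with *ACVR1* R206H and H3.1K27M. *Sstr2*, a receptor for the peptide somatostatin, was lower with R206H than with WT in all samples without H3.1K27M, and higher in all samples with it. The fitted R206H effect was -0.57 (standard error 0.26) without and 2.04 (standard error 0.22) with H3.1K27M, an interaction of 2.61 (standard error 0.33, adjusted p = 0.021, edgeR). The unadjusted p of its R206H effect without H3.1K27M was 0.046 (edgeR). With *ACVR1* WT replicate 1 as the only *ACVR1* WT sample that effect was -0.20 and the class was stronger. The interaction itself was 2.24 there and 2.76 without that sample. *Sstr2* passed the threshold in 3 of the 12 fits that left out 1 sample. Its samples without H3.1K27M held 15 to 32 counts each. Of the other 6 somatostatin ligand and receptor genes, *Sstr1* was tested (interaction 0.34, standard error 0.72, adjusted p = 0.89, edgeR) and the rest were below the count minimum. *Sstr1* was at 0.81 without *ACVR1* WT replicate 1 and at -1.79 with it as the only *ACVR1* WT sample (adjusted p = 0.088 and 0.031, edgeR).

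*Nptx1* had 93.9, 84.1 and 74.3 CPM with *ACVR1* WT, 70.2, 64.7 and 69.9 with *ACVR1* R206H, 133, 141 and 138 with *ACVR1* WT and H3.1K27M, and 199, 203 and 212 with *ACVR1* R206H and H3.1K27M. *Nptx1* encodes a secreted pentraxin of synapses. Without H3.1K27M all *ACVR1* R206H samples were below all *ACVR1* WT samples, and with it all were above. The R206H effect was -0.30 (standard error 0.08) without and 0.58 (standard error 0.07) with H3.1K27M, an interaction of 0.88 (standard error 0.11, adjusted p = 0.021, edgeR). Its class was the same without *ACVR1* WT replicate 1 and with replicate 1 alone. At an unadjusted p under 0.05, the next opposite genes were *Fbxo32*, a ubiquitin ligase of muscle wasting, *Lgals9*, a galectin, and *Nfil3*, a bZIP transcription factor. *Fbxo32* had an R206H effect of 0.27 without and -0.28 with H3.1K27M (interaction -0.55, adjusted p = 0.075, edgeR). *Lgals9* had -0.54 and 0.79 (interaction 1.33, adjusted p = 0.082, edgeR), and *Nfil3* had -0.50 and 0.60 (interaction 1.10, adjusted p = 0.095, edgeR). None of these 3 passed the threshold with all samples in edgeR, and all 3 passed it in DESeq2. Without *ACVR1* WT replicate 1 all 3 passed as opposite. With replicate 1 as the only *ACVR1* WT sample *Fbxo32* passed as opposite and *Nfil3* as stronger (adjusted p = 0.011 and 0.038, edgeR), and *Lgals9* had an adjusted p of 0.072 (edgeR).

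Among the 11 genes, *ACVR1* R206H and *ACVR1* WT samples did not overlap for 6 without H3.1K27M, where 9.67% of all genes tested did not, and for 11 with H3.1K27M, where 36.9% did not. The genes were called on these same samples. The fitted effect of H3.1K27M was below 0 with *ACVR1* WT and above 0 with *ACVR1* R206H for 6 genes. It was the reverse for *Wnt5a* and of 1 sign for the other 4. The interaction is also the difference between these H3.1K27M effects, and the share over all genes tested was not counted. For *Sstr2*, *Lcat* and *Hs3st3b1*, of the 6, the effect with *ACVR1* WT did not pass. It was -0.11, -0.31 and -0.22 (adjusted p = 0.75, 0.21 and 0.066, edgeR). On the CPM scale, where additive means that differences add up, the interaction of all 11 had the sign it had on the log2 scale. Within the group with both mutations, replicate 2, which had the lowest CPM of *Acvr1*, was the lowest of its group for 8 of the 9 genes above 0 and the highest for both below 0, where replicate 2 was the lowest for 35.9% and the highest for 35.4% of all genes tested. The part of *Acvr1* level in these values was not tested.

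Sequences before the RefSeq start are shown for 3 of these genes, *Id2* and *Sstr2*, whose levels are given above, and *Lcat*, the only one whose window held both motifs searched. BMP SMADs bind GC-rich elements such as GGCGCC and SMAD4 binds the SMAD box CAGAC. RefSeq promoters (GRCm38.p6) were matched for 8 of the 11 genes, and the 250 bases before each start were searched for both motifs on both strands. The letters in capitals mark the matches (GTCTG is CAGAC on the other strand). Each stretch shown stops before the first base that GENCODE M21 places in a UTR. The search and the counts below used all 250 bases of each window. The *Id2* stretch lies inside the gene as GENCODE M21 places it, since the RefSeq start used is further in than the end of that annotation.
*Id2*, chr12:25096254-25096342, minus strand: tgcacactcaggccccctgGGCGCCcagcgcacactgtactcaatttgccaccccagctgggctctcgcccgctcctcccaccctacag
*Sstr2*, chr11:113619077-113619326, plus strand: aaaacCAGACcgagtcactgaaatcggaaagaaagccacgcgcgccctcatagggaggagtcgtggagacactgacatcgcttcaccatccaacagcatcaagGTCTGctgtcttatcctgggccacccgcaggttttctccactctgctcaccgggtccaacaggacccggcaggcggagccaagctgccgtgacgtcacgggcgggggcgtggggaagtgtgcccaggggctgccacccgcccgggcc
*Lcat*, chr8:105943403-105943652, minus strand: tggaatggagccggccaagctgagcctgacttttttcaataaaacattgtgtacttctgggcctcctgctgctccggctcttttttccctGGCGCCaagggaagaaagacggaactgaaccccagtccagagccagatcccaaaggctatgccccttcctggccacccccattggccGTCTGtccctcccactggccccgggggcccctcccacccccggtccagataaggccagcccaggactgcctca
The motif GGCGCC was in 2 of the 8 windows, *Id2* and *Lcat*, and in 9.59% of all 32851 RefSeq promoter windows of this length. CAGAC was in 4 of the 8 (*Id3*, *Adm*, *Sstr2* and *Lcat*) and in 42.2% of all windows. *Id3* and *Sstr2* each held 2 copies and no GGCGCC. A match describes these letters and does not show binding.

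For weaker than additive, edgeR called 0 genes and DESeq2 4, and 322 genes, or 2.08%, had an unadjusted p under 0.05 in edgeR. By the definition of the class, the 5 with the smallest p had a fitted R206H effect nearer to 0 with H3.1K27M than without it. None passed the threshold in edgeR with all samples, and *Etv1*, *Stard4*, *Sod3* and *Lima1* passed it in DESeq2. For *Stard4* and *Ptpn6* all R206H samples were below all WT samples without H3.1K27M and above them with it. *Etv1*, an ETS transcription factor, had 97.7 to 108 CPM with *ACVR1* WT and 80.5 to 87.7 with *ACVR1* R206H, and 85.0 to 92.6 and 91.4 to 93.5 CPM with H3.1K27M. The R206H effect was -0.30 without and 0.07 with H3.1K27M (interaction 0.37, standard error 0.08, adjusted p = 0.21, edgeR). *Stard4*, which carries cholesterol between membranes, had R206H effects that went from -0.30 to 0.14 (adjusted p = 0.23 for the interaction, edgeR), and *Lima1*, an actin-binding protein, from -0.54 to 0.03 (adjusted p = 0.33 for the interaction, edgeR). *Sod3*, an extracellular superoxide dismutase, went from 0.41 to 0.01 (adjusted p = 0.27 for the interaction, edgeR), and is the only one of the 5 with an interaction below 0. *Ptpn6*, a phosphatase of blood cells, was at 0.902 to 1.66 CPM with *ACVR1* WT and under 1 CPM in every other sample, and went from -1.07 to 0.61 (adjusted p = 0.29 for the interaction, edgeR). Without *ACVR1* WT replicate 1, where 26.6% of all genes passed, all 5 did, *Stard4* as opposite and the others as weaker, with adjusted p values of 0.00014 to 0.0049 (edgeR). With replicate 1 as the only *ACVR1* WT sample, where 4.89% passed, *Etv1* and *Lima1* had adjusted p values of 0.013 and 0.048 and the other 3 did not pass.

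*Mctp1* and *Diras2* were additive and passed the threshold for R206H in both backgrounds. *Mctp1* had 2.04, 2.44 and 2.98 CPM with *ACVR1* WT, 8.06, 7.09 and 5.57 with *ACVR1* R206H, 15.8, 14.9 and 17.7 with *ACVR1* WT and H3.1K27M, and 45.8, 41.0 and 48.4 with *ACVR1* R206H and H3.1K27M. *Mctp1* encodes a calcium-binding membrane protein, and each mutation raised it with either form of the other. Its R206H effect was 1.47 (standard error 0.17) without and 1.48 (standard error 0.14) with H3.1K27M, and its interaction of 0.01 had a 95% interval of -0.47 to 0.49. The H3.1K27M effect was likewise 2.70 with *ACVR1* WT and 2.71 with *ACVR1* R206H. On the CPM scale the same gene had a difference of differences of 24.5 CPM (standard error 2.45), so that additive on the log2 scale was more than additive in CPM.

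*Diras2*, a small GTPase of the Ras family, was at 4.36 to 7.69, 14.0 to 19.1, 24.5 to 26.0 and 72.4 to 88.2 CPM without (WT, then R206H) and with H3.1K27M (WT, then R206H). Its interaction was 0.17 (95% interval -0.35 to 0.69). *Tmem108*, a transmembrane protein, had R206H effects of 0.72 and 1.29 and an interaction of 0.58 (95% interval 0.25 to 0.90), inside the bound and at an unadjusted p of 0.0024 (adjusted p = 0.36, edgeR). With an average R206H effect below 0, the 3 additive genes with the smallest p had most of it with H3.1K27M. *Svil*, an actin-binding protein, had R206H effects of -0.14 without and -0.66 with H3.1K27M, and its interaction of -0.53 had a 95% interval of -0.73 to -0.32. *Kcnj16*, a potassium channel subunit of glia, had -0.04 and -0.36 (interaction -0.32, 95% interval -0.44 to -0.19), and *Ildr2* had -0.11 and -0.44 (interaction -0.33, 95% interval -0.51 to -0.16). *Svil* and *Kcnj16* were stronger than additive both without *ACVR1* WT replicate 1 and with replicate 1 as the only *ACVR1* WT sample. Additive here means an interaction under 1 in size, and 601 additive genes had an unadjusted interaction p under 0.05. With a bound of 0.5, 6887 genes were additive.

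Of 16 BMP target genes, 14 were tested, 2 passed the threshold (*Id2* and *Id3*) and 10 had an unadjusted p under 0.05, all with an interaction above 0. Of all genes tested, 0.0712% passed, 7.66% had an unadjusted p under 0.05 and 5.27% had one with an interaction above 0, and the counts of the lists below with all samples stand against the same shares. The median interaction was 1.03, against 0.02 for all genes tested, and 13 of the 14 lay above 0, as did 8342 of the 15445 genes tested. *Atoh8*, a bHLH factor, was at 1.14 to 2.34 CPM with *ACVR1* WT, 5.53 to 5.91 with *ACVR1* R206H, 2.72 to 2.93 with *ACVR1* WT and H3.1K27M, and 25.3 to 33.4 with both mutations, with no overlap of R206H and WT in either background. Its interaction was 1.68 (standard error 0.27, adjusted p = 0.074, edgeR). The inhibitory SMAD genes *Smad6* and *Smad7*, which dampen the pathway, had interactions of 1.10 and 0.76, and *Smad9*, *Bambi* and *Hey1* had 0.96, 0.91 and 0.30. *Runx2*, at 0.06 (standard error 0.43), and *Hes1*, the only member below 0 at -0.49 (standard error 0.24), had unadjusted p values of 0.89 and 0.061. The median was 1.09 without *ACVR1* WT replicate 1 and 0.54 with replicate 1 as the only *ACVR1* WT sample. Without replicate 1, 11 of the 14 passed, against 26.6% of all genes tested. Among these 11 was *Hes1*, below 0 at -0.77 (adjusted p = 0.00051, edgeR). *Smad6* and *Runx2* were larger with replicate 1 as the only *ACVR1* WT sample than without it. *Atoh8*, *Smad9*, *Smad7* and *Hey1* were at 1.91, 1.24, 0.91 and 0.36 without replicate 1. They were at 1.05, 0.18, 0.41 and 0.15 with it as the only *ACVR1* WT sample.

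**Figure D4:**
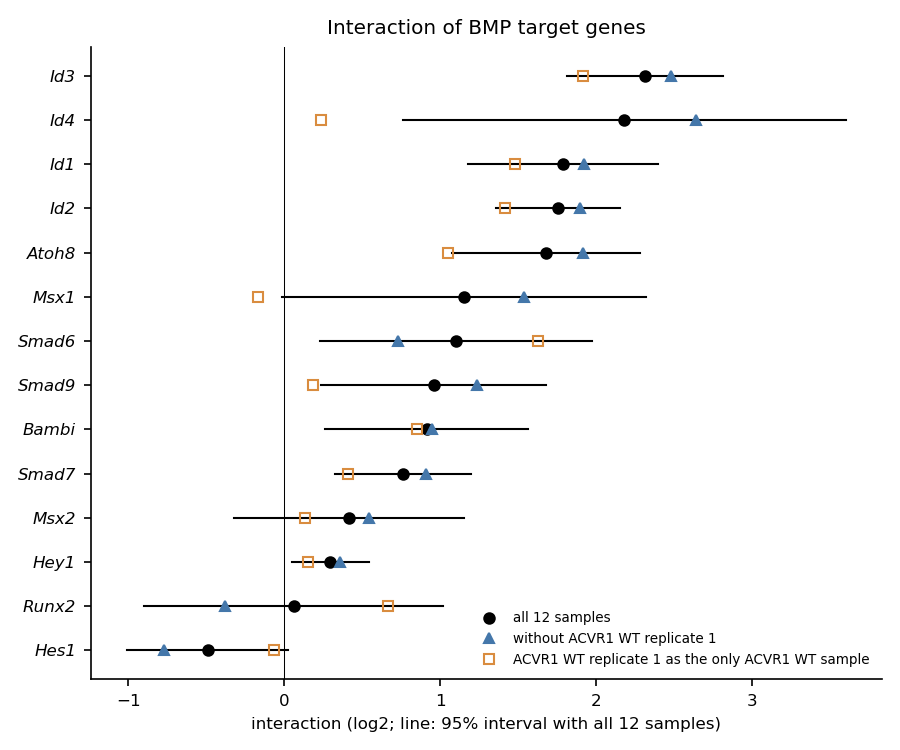
Interaction on the log2 scale of the 14 BMP target genes tested, with all 12 samples (circles, lines are 95% intervals), without *ACVR1* WT replicate 1 (triangles) and with replicate 1 as the only *ACVR1* WT sample (squares). *Id3*, *Id1*, *Id2* and *Atoh8* stay above 1 in all 3 fits, while *Id4* and *Msx1* move from 2.64 and 1.54 to 0.24 and -0.17.

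Of the extracellular antagonists, which bind BMP or activin and block the receptor, 8 of 12 were tested, 0 passed the threshold in edgeR and 1 had an unadjusted p under 0.05. This was *Nog*, the BMP antagonist Noggin, at 0.949 to 2.30, 3.05 to 3.80, 1.55 to 1.97 and 10.996 to 17.6 CPM with WT, R206H, WT and H3.1K27M, and both mutations. Its interaction was 1.92 (standard error 0.40, adjusted p = 0.21, edgeR). *Fst*, the activin antagonist follistatin, was additive, with R206H effects of 1.31 and 1.05 and an interaction of -0.26 (standard error 0.22). *Grem1*, at -0.92 (standard error 0.81), and *Chrdl1*, at -0.25 (standard error 0.43), were undetermined. Of the 8, 2 passed without *ACVR1* WT replicate 1 and 1 with it as the only *ACVR1* WT sample (26.6% and 4.89% of all genes), where *Nog* was at 2.23 and 1.05, *Chrdl1* at -0.87 and 0.50 and *Fst* at -0.49 and 0.12.

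Of 19 receptor and SMAD genes, 18 were tested, 0 passed the threshold in edgeR, 3 had an unadjusted p under 0.05 and 13 were additive within the bound. *Bmpr1a*, a type I BMP receptor, was at 306 to 384, 400.1 to 435, 280.4 to 301 and 537 to 603 CPM in the 4 groups in the same order, with an interaction of 0.71 (standard error 0.12, adjusted p = 0.075, edgeR). The others were *Acvr1* and *Rgma*, a BMP coreceptor, at 0.64 (standard error 0.23, adjusted p = 0.57, edgeR). *Rgma* was at 0.85 without *ACVR1* WT replicate 1 (adjusted p = 5.3e-05, edgeR) and at 0.07 with it as the only *ACVR1* WT sample. The signal carriers *Smad1*, *Smad5* and *Smad4* were additive at 0.14, -0.15 and -0.04, as were the type II receptors *Bmpr2* and *Acvr2a* at -0.10 and 0.12. Without *ACVR1* WT replicate 1, *Smad1* and *Smad5* passed with unlike signs, at 0.20 and -0.25 (adjusted p = 0.033 and 0.028, edgeR). With it as the only *ACVR1* WT sample they were at 0.002 and 0.04. Of the 18, 9 passed without *ACVR1* WT replicate 1 and 1 with it as the only *ACVR1* WT sample (26.6% and 4.89% of all genes).

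All 13 genes of PRC2 and the H3K27 demethylases were tested. None passed the threshold in edgeR, 2 had an unadjusted p under 0.05 and 11 were additive, *Kdm6a*, *Kdm6b* and *Eed* at -0.04, 0.04 and -0.07 among them. The 2 were *Ezh1*, at 0.40 (adjusted p = 0.62, edgeR), and *Phf1*, at 0.35 (adjusted p = 0.62, edgeR). *Ezh2*, the main methyltransferase of dividing cells, was undetermined at -0.39 (standard error 0.30). Of the 13, 7 passed without *ACVR1* WT replicate 1 and 3 with it as the only *ACVR1* WT sample (26.6% and 4.89% of all genes), where *Ezh2* was at -0.79 and 0.17 (adjusted p = 0.00014 and 0.19, edgeR), *Ezh1* at 0.54 and 0.09 and *Phf1* at 0.41 and 0.23. Of 21 developmental regulators under Polycomb control, 5 reached the count minimum, 0 had an unadjusted p under 0.05 and 3 were additive, *Cdkn2a* and *Cdkn2b* at -0.10 and 0.29 among them. Of these 5, 1 passed without *ACVR1* WT replicate 1 and 0 with it as the only *ACVR1* WT sample (26.6% and 4.89% of all genes).

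Of 16 genes of the IL6 family and STAT3 signalling, 16 were tested, 0 passed the threshold in edgeR, 0 had an unadjusted p under 0.05 and 11 were additive. *Socs3*, the feedback inhibitor of STAT3, had R206H effects of 0.77 without and 0.57 with H3.1K27M and an interaction of -0.20 (standard error 0.18). *Stat3* itself was at -0.06 (standard error 0.12), and *Junb*, at 0.74 and 1.18, had an interaction of 0.44 (standard error 0.22). The median of this list was -0.03, and 3 passed without *ACVR1* WT replicate 1 and 2 with it as the only *ACVR1* WT sample (26.6% and 4.89% of all genes).

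Of 17 mesenchymal genes 14 were tested, 0 passed the threshold in edgeR and 4 had an unadjusted p under 0.05, 2 in each direction. *Cd44* and *Vim*, which mark mesenchymal and reactive cells, were additive at -0.05 and 0.14, with R206H effects of 0.63 and 0.58 for *Cd44* and of 0.36 and 0.51 for *Vim*. The transcription factor *Snai2* had fewer than 1 CPM in each sample but those with both mutations, which had 1.90, 2.33 and 3.22 CPM, and an interaction of 1.95 (standard error 0.84, adjusted p = 0.64, edgeR). That value was 2.34 without *ACVR1* WT replicate 1 and 0.39 without replicate 3. It was 0.73 with replicate 1 as the only *ACVR1* WT sample and 0.22 with a cell cycle score as covariate. *Zeb1* was additive at -0.48 (standard error 0.17, adjusted p = 0.55, edgeR). The list had a median of 0.20 with all samples, and 3 of the 14 passed without *ACVR1* WT replicate 1 (26.6% of all genes). The median was -0.05 without *ACVR1* WT replicate 1 and 0.27 with it as the only *ACVR1* WT sample. In these fits *Zeb1* was at -0.64 and -0.21, *Cd44* at -0.30 and 0.34 and *Vim* at -0.02 and 0.41. *Tnc*, the matrix protein tenascin C, was undetermined at 0.27 and passed with unlike signs in these fits, at -0.46 and 1.11 (adjusted p = 0.047 and 0.0022, edgeR).

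All 12 Notch pathway genes were tested, 0 passed the threshold in edgeR, 1 lay above 0 and 3 below at an unadjusted p under 0.05, and the median was -0.21. The ligand *Dll1* was at 104 to 149, 115 to 139.6, 67.5 to 81.1 and 43.9 to 53.6 CPM in the 4 groups, with an interaction of -0.61 (standard error 0.19, adjusted p = 0.48, edgeR). *Nrarp*, a feedback inhibitor, was at -1.05 (standard error 0.34, adjusted p = 0.52, edgeR), and the receptor *Notch2* at -0.47 (standard error 0.16, adjusted p = 0.53, edgeR). *Hey1*, a target shared with BMP, was the gene above 0. The interactions of *Dll1*, *Nrarp* and *Notch2* were below 0 also without *ACVR1* WT replicate 1 and with replicate 1 as the only *ACVR1* WT sample, where 7 and 3 of the 12 passed (26.6% and 4.89% of all genes).

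The interaction of cell cycle genes could not be settled with these samples. All 20 were tested and undetermined, with a median of -0.74 and a median standard error of 0.76. The median was -2.03 without *ACVR1* WT replicate 1, where all 20 passed the threshold (26.6% of all genes), and 0.32 with replicate 1 as the only *ACVR1* WT sample, where 0 passed in edgeR. *Mki67* was at -0.88 (standard error 0.84) with all samples and at -2.20 and 0.25 in the other fits.

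The summed level of 8 astrocyte markers was 3951 to 13599 CPM in *ACVR1* WT and 6663 to 7785 in *ACVR1* R206H, against 3864 to 3991 and 4812 to 4862 CPM with H3.1K27M, while in *ACVR1* WT the progenitor markers summed to 4174 to 4945 CPM and the oligodendrocyte lineage markers to 3334 to 3737 CPM. Of the astrocyte markers 8 were tested, 0 passed with all samples in edgeR and 1 had an unadjusted p under 0.05, with a median interaction of 0.39. In the fits without *ACVR1* WT replicate 1 and with it as the only *ACVR1* WT sample, 4 and 5 passed (26.6% and 4.89% of all genes), with medians of 0.66 and -0.64. The interaction of *Aqp4*, a water channel of astrocytes, was 1.51 with all samples and 1.98 and -0.60 in the other fits. With all samples *Gjb6*, *Gfap*, *Gja1* and *Aldoc* were at 1.35, 1.27, 0.61 and 0.17, and *Aldh1l1*, *S100b* and *Slc1a2* at -0.10, -0.04 and -0.003. In the other fits *Gfap* was at 1.74 and -0.83, *Aldh1l1* at 0.03 and -0.41 and *S100b* at 0.19 and -0.67. The median interaction of the 7 neural progenitor markers was 0.27 and that of the 9 oligodendrocyte lineage markers -0.10, with 0 past the threshold in either list in edgeR and 3 and 0 at an unadjusted p under 0.05. Of the progenitor markers 6 passed without *ACVR1* WT replicate 1 and 2 with it as the only *ACVR1* WT sample (26.6% and 4.89% of all genes). In the same fits 6 and 5 of the oligodendrocyte markers passed, with medians of -0.02 and -0.70. Of 9 neuronal markers 8 were tested and 4 had an unadjusted p under 0.05, while 3 passed without *ACVR1* WT replicate 1 and 2 with it as the only *ACVR1* WT sample (26.6% and 4.89% of all genes). *Stmn2*, a microtubule regulator of neurons, had an interaction of 3.05 (standard error 0.81, adjusted p = 0.36, edgeR), at 0.712, 2.34 and 6.26 CPM in *ACVR1* WT and 6.42, 4.66 and 7.56 CPM with both mutations. It was at 2.01 without *ACVR1* WT replicate 3, 3.53 and 0.93 without replicate 1 and with it as the only *ACVR1* WT sample, and 1.16 with the cell cycle score. *Gad1*, *Snap25* and *Map2* lay below 0, at -0.60, -0.33 and -0.14. The median of the 8 was 0.67 with all samples, 0.82 without *ACVR1* WT replicate 1 and -0.26 with it as the only *ACVR1* WT sample.

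Markers of microglia, vessels and ependyma were low. The 9 microglial markers summed to 5.03 to 26.0 CPM in *ACVR1* WT, 8.36 to 9.74 in *ACVR1* R206H, 1.35 to 1.94 in *ACVR1* WT with H3.1K27M and 2.20 to 3.41 with both mutations, and 2 of the 5 tested had an unadjusted p under 0.05. The defining marker *Cx3cr1* was at 0 in 1 *ACVR1* WT sample with H3.1K27M and 1 sample with both mutations. Endothelial markers summed to at most 15.7 CPM in any sample. The 7 mural and fibroblast markers summed to 9.15 to 12.5, 13.0 to 15.3, 14.9 to 15.8 and 25.3 to 30.0 CPM in the 4 groups, highest with both mutations. Of these, 3 were tested, and *Rgs5*, of pericytes, had an interaction of 0.68 (standard error 0.27, adjusted p = 0.62, edgeR), while *Acta2* and *Col1a1*, of smooth muscle and fibroblasts, were at -0.17 and -0.15. Ependymal and choroid plexus markers summed to 51.2 to 107 CPM. Their part in the interaction was not tested.

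Among the fits that left out 1 sample, the number of genes called moved most without *ACVR1* WT replicate 1. Without *ACVR1* WT replicate 1, 4115 genes, or 26.6%, had an adjusted p under 0.05 in edgeR, of which 581 were stronger, 2441 weaker and 1093 opposite. With replicate 1 as the only *ACVR1* WT sample there were 755, or 4.89%, with 242 stronger, 250 weaker and 263 opposite, and the lone sample is assumed to vary like the other groups. Both fits share the 9 samples of the other groups. The fits often went against each other: 399 genes were called in both, 295 with opposite signs and 104 with the same sign (2.53% and 13.8% of the genes called in each), which is given as a description. The 11 genes called with all 12 samples were among the 104, with interactions of 2.48 and 1.91 for *Id3*, 2.76 and 2.24 for *Sstr2*, and -1.23 and -1.10 for *Adm*. The other genes were at 1.89 and 1.41 (*Id2*), 1.70 and 1.54 (*Stk32b*), 2.06 and 1.34 (*Lcat*) and 1.02 and 0.69 (*Cxxc5*), and at 0.81 and 0.99 (*Hs3st3b1*), 0.48 and 0.49 (*Parvb*), 0.79 and 1.03 (*Nptx1*) and -0.95 and -0.69 (*Wnt5a*). Leaving out *ACVR1* WT replicate 2 or 3 gave 4 and 7 genes, and leaving out replicate 1 or 2 with both mutations gave 17 and 4. Leaving out any other sample gave 3 genes, *Id2*, *Id3* and *Stk32b*. *Wnt5a* was opposite without *ACVR1* WT replicate 1, and the remaining 9 of the 11 kept their class in both fits.

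**Figure D5:**
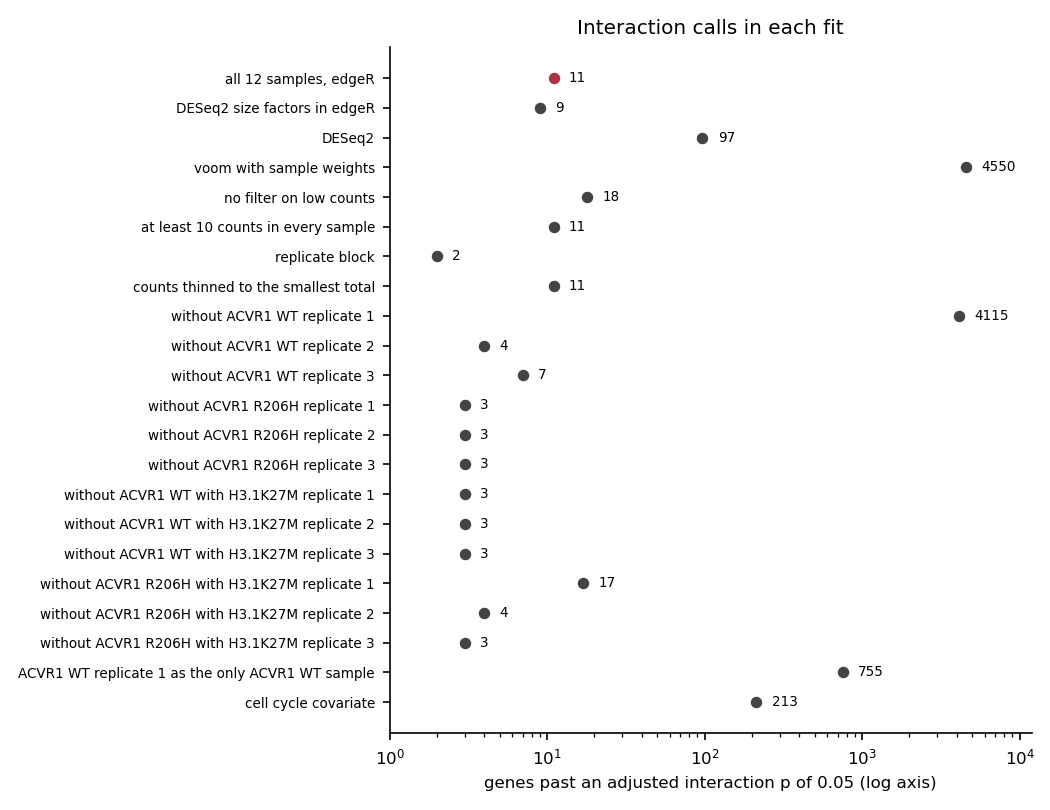
Number of genes past an adjusted interaction p of 0.05 (log axis) with all 12 samples in edgeR (red) and in each other fit (grey), with the number beside each point. The number runs from 2 with a replicate block to 4550 in limma with sample weights, and is 4115 without *ACVR1* WT replicate 1.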

How the data were processed

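Read pairs were mapped by the authors to mm10 using STAR 2.6.0b-1 and counted per Ensembl gene with HTSeq, in union mode, without strand and without ambiguous reads. They deposited these raw counts for each of the 12 samples, and no column held other samples. From them, edgeR 4.0.16 (R 4.3.3) fitted the 4 groups of 3 together with TMM normalisation, keeping genes whose mean count after median-of-ratios scaling reached 10, with quasi-likelihood F tests and Benjamini-Hochberg adjustment over the 15445 genes tested. Standard errors came from the fitted weights and the moderated dispersion of each gene, which the 4 groups shared. CPM values and group means ± SD were scaled by TMM. Positions and gene overlaps were taken from GENCODE M21, which held 54495 of the 54532 genes. The fits were tested on simulated counts first. The members, lists and alternatives were chosen with earlier results of these data known, and the fits with *ACVR1* WT replicate 1 as the only *ACVR1* WT sample and with the cell cycle score were added after seeing the data.

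Named were the genes past the interaction threshold, the *Id* genes, *Sstr2* and *Acvr1*, the 5 with the smallest interaction p in each class at an unadjusted p under 0.05, 3 additive genes in each direction by average R206H effect, and from each list up to 4 members at an unadjusted p under 0.05 and those that define it. Which members define a list, such as *Fst*, *Socs3* or *Cd44*, was chosen after their values were seen. Alternatives were DESeq2 1.42.0, its size factors, limma 3.58.1 voom with sample weights, other count minimums, a replicate block, thinned counts and leaving out each sample. With 3 samples a group, their number limits the precision. The lowest chi-square between replicates was 2.95 per degree of freedom, so that no sample was counted as a repeat of another. The authors' other experiments were not analysed here.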

Additional observations from a re-analysis of the deposited data

Results flagged for a closer look

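The 11 genes past the interaction threshold are listed because the R206H effect differed between the backgrounds without and with H3.1K27M by a test of the difference itself (edgeR). Above 0 were *Sstr2* at 2.61, *Id3* at 2.31, *Lcat* at 1.86, *Id2* at 1.75, *Stk32b* at 1.65, *Cxxc5* at 0.92, *Nptx1* at 0.88, *Hs3st3b1* at 0.88 and *Parvb* at 0.49 on the log2 scale. Below 0 were *Adm* at -1.18 and *Wnt5a* at -0.85.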

How the results depend on the processing

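With DESeq2's size factors, at least 10 counts in every sample or thinned counts, 9, 11 and 11 genes passed, of which 9, 11 and 10 were among the 11. In the second of these 1 gene was opposite. DESeq2 called 97 genes (81 stronger, 4 weaker, 12 opposite), all 11 among them, limma with sample weights 4550 (970 stronger, 2300 weaker, 1280 opposite), with a weight of 0.074 for *ACVR1* WT replicate 1, and a cell cycle score as covariate 213 (156 stronger, 8 weaker, 49 opposite). With no filter on low counts 18 passed (17 stronger, 1 opposite). With replicate 1 as the only *ACVR1* WT sample 755 passed (242, 250 and 263 in the 3 classes). With a bound of 0.5, 6887 genes were additive. Leaving out 1 sample at a time gave 3 to 4115 genes, 3 to 581 stronger, 0 to 2441 weaker, 0 to 1093 opposite and 8590 to 11638 additive, and the highest of the first 4 was without *ACVR1* WT replicate 1 (otherwise at most 17, 15, 0 and 2). The cause was not tested.

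With the replicate number as a block 2 genes passed, *Id2* and *Id3*, both stronger, and 0 were opposite. Samples that share a number deviated from their groups with correlations of -0.16 to 0.48 over 18 pairs (median 0.024), 4 of them over 0.1, and 1 of 12 samples correlated best with its own number in every other group, so that the numbers were not taken to pair the samples.

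Of the values of named genes under the alternatives, 910 kept their direction and side of the threshold, 110 passed only there, 93 no longer passed and 15 turned. *Mctp1* was at -0.15 to 0.14 on leaving out 1 sample, -0.032 with no filter, -0.28 with replicate 1 as the only *ACVR1* WT sample and -0.27 with the cell cycle score, and *Diras2* at -0.063 to 0.35 and -0.23 with sample weights. *Aqp4* and *Dcx* turned to -0.60 and -0.86 with replicate 1 as the only *ACVR1* WT sample and to -0.16 and -0.086 with the cell cycle score.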
